A study of Mus musculus with 10 samples.

Results

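TET2 is one of the enzymes that oxidise 5-methylcytosine to 5-hydroxymethylcytosine, a step towards the loss of DNA methylation. It lacks the CXXC domain with which some of its relatives bind CpG-rich DNA, and it is thought to reach chromatin largely through partner proteins. Its genomic sites are therefore mapped indirectly, by crosslinking and immunoprecipitation, either with an antibody against the protein or through an epitope tag. The regions described here were detected with FLAG-tagged TET2 and with nothing else that was meant to detect TET2 or to control for the tag. They had a peak in both lists from FLAG-TET2 cells and in none of the 4 lists from untagged parental or wild-type cells. Of the 79350 regions obtained by merging the peaks of all 8 lists, 1330 met this rule, or 1.68%. They were 5.46% of the 24380 regions with a peak in both FLAG-TET2 lists. They were chosen by the peaks of these 6 lists, so their presence or absence there is a description and no test was run on it.

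ChIP-seq libraries were made from embryonic stem (ES) cells of mouse, grown in serum with LIF, the GSK-3 inhibitor CHIR99021 and the MEK inhibitor PD0325901. FLAG-TET2 cells carried 2x-Flag tagged TET2 on a Tet2fl/fl background, and parental cells were Tet2fl/fl with no tag, and both were precipitated with FLAG M2 affinity gel. Wild-type cells, again Tet2fl/fl, and Tet2-/- knockout cells were precipitated with a rabbit polyclonal antibody raised against the N-terminal part of TET2. Each of the 4 groups had 2 replicates, while an input and an IgG library were not analysed here. All groups shared the medium, the crosslinking with disuccinimidyl glutarate and formaldehyde, and a floxed or deleted Tet2 allele, so that none carried an unmodified one. The labels state neither how many clones each genotype represents nor whether replicates were separate cultures.

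The lists differed in length, and this bears on the rule. FLAG-TET2 replicates 1 and 2 had 63578 and 28245 peaks on the assembled chromosomes, parental replicates 36518 and 10122, wild-type replicates 38536 and 18820, and knockout replicates 2259 and 11696. The read depth behind a list is unknown. Of 24380 regions with a peak in both FLAG-TET2 lists, 23050 (94.5%) were left out because of a parental or wild-type peak. A single list left out 4698 of them (19.3%). Wild-type replicate 1 alone accounted for 3076 and parental replicate 1 alone for 1572, against 43 for wild-type replicate 2 and 7 for parental replicate 2. Without wild-type replicate 1 the rule would have taken 4465 regions, and without parental replicate 1 it would have taken 2975. Dropping the demand for a peak in FLAG-TET2 replicate 2 gave 18559 regions.

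Promoters that overlapped a FLAG-only region are shown first, because their sequence was not used to choose the regions. Sequences are from RefSeq on GRCm38.p6, the assembly behind mm10, and run from 250 bases before to 50 bases after a start. Windows of 1 chromosome were not used here. Of the 1281 FLAG-only regions on the others, 43 overlapped a window, against 6247 of 23587 regions in both FLAG-TET2 lists. Among tagged regions shared with both wild-type but no parental lists it was 413 of 5211. Among those shared with both parental but no wild-type lists it was 228 of 3872. The FLAG-only regions overlapped 50 windows, of which 4 are printed. They are the one whose region ranked highest in the FLAG-TET2 lists and the 3 that belong to protein-coding genes among the 6 leading. LOC118027456 (chr6:134243670-134243969, minus strand) lies within the span of Etv6, an ETS-family transcription factor gene. Cbr1 (chr16:93607587-93607886, plus strand) encodes a carbonyl reductase, Mgat4a (chr1:37540967-37541266, minus strand) a glycosyltransferase that branches N-glycans, and Elk3 (chr10:93311110-93311409, minus strand) another ETS factor. Each is written 5′ to 3′ on the gene's strand, with CpG dinucleotides in capitals.
LOC118027456: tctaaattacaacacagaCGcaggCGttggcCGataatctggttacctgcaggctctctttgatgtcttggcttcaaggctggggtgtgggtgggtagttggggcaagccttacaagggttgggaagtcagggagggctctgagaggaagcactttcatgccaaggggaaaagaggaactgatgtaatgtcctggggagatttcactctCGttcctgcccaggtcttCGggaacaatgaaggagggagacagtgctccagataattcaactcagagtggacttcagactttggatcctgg
Cbr1: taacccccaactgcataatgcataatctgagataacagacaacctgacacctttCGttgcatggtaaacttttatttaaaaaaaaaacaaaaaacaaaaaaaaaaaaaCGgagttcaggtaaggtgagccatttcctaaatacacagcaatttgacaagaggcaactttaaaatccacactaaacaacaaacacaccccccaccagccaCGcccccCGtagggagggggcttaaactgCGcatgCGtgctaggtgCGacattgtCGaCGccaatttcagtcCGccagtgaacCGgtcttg
Mgat4a: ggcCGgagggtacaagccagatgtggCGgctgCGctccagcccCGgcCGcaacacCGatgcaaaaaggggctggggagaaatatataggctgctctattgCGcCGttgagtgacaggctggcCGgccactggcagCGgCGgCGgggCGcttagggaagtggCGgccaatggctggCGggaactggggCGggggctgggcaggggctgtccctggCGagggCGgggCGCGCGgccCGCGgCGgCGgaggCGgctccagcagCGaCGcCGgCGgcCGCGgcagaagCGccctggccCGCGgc
Elk3: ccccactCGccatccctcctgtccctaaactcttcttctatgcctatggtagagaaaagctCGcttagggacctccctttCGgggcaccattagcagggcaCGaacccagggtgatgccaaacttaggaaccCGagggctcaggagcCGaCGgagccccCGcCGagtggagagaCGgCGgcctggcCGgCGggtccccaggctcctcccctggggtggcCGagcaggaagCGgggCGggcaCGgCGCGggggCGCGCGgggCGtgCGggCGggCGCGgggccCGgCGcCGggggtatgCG

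The 4 promoters differed widely in composition. The LOC118027456 window held 5 CpGs at 51.7% GC, the Cbr1 window 11 at 44.0%, the Mgat4a window 35 at 74.3% and the Elk3 window 31 at 71.3%. The summits of FLAG-TET2 replicates 1 and 2 lay 43 and 62 bases after the Mgat4a start, and at positions -12 and -30 from the Elk3 start. At LOC118027456 both were near the upstream edge of the window, at -243 and -236. At Cbr1 they were less close to each other, at 52 and 311. Over the 50 windows the median was 13 CpGs (interquartile range 6.25 to 20) and 53.3% GC. The median was 24 CpGs and 63.0% GC over 8233 windows that overlapped any region in both FLAG-TET2 lists. Over all 32851 windows it was 7 CpGs and 52.7% GC. Windows at tagged regions shared with both wild-type lists but no parental list (490) had 18 CpGs and 59.7% GC. Those at tagged regions shared with both parental lists but no wild-type list (264) had 17 CpGs and 56.7% GC.

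Short motifs were searched on both strands of the windows. GGGCGG, the core of the GC box bound by SP factors, was in 21 of 50 windows at FLAG-only regions (42%), against 70.1% at all regions in both FLAG-TET2 lists and 35.7% of all windows. The ETS-type motif CCGGAAG was in 13 windows (26%), against 22.0% and 8.86%. TTCCGG, whose opposite strand CCGGAA is contained in CCGGAAG, was in 16 (32%), against 33.2% and 14.9%. Windows at tagged regions shared with both wild-type lists but no parental list had GGGCGG in 58.4%, CCGGAAG in 14.3% and TTCCGG in 24.3%. For tagged regions shared with both parental lists but no wild-type list the shares were 55.7%, 13.6% and 24.6%. The E-box CACGTG was in 3 windows at FLAG-only regions. The octamer ATGCAAAT, the AP-1 motif TGACTCA and the TATA-type TATAAA were in 1 window each, or 2% against 1.74%, 5.20% and 13.6% of all windows. With 50 windows, shares of 1 to 3 windows carry little weight, and a match is a run of letters and not a binding site.

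Beside all regions in both FLAG-TET2 lists, the FLAG-only regions were narrow and their peaks were of modest height. Their median width was 265.5 bp (interquartile range 212 to 343, whole range 137 to 1007), against 489 bp for all regions in both FLAG-TET2 lists. Width is that of the merged region, which takes in any parental or wild-type peak. FLAG-only regions have none by the rule, which bears on the difference from 489 bp. Over all 79350 merged regions the median width was lower, at 243 bp. The authors' fold enrichment at the summit is a linear ratio over their control track and belongs to its own list. Its median over the FLAG-only regions was 6.93 in FLAG-TET2 replicate 1 (2.57 to 17.6) and 5.29 in replicate 2 (2.58 to 13). Over all regions in both FLAG-TET2 lists the medians were 10.3 and 6.62. Over all merged regions with a peak in the replicate concerned they were 6.98 and 6.62. Tagged regions that also had both wild-type peaks and no parental peak (5397) reached 11.8 and 7.19. Those with both parental peaks and no wild-type peak (4006) reached 17.5 and 11.1. Median widths of these sets were 448 and 329.5 bp in that order. How far the rule itself favours low peaks was not tested, and these differences are given as a description.

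Ranks within a list were modest as well. Ordered by the authors' −log10 q, the median FLAG-only region stood at the 50.4th percentile of FLAG-TET2 replicate 1 and at the 24.7th of replicate 2. In replicate 1, 662 were below the middle of the list, and in replicate 2, 1124 were. At or above the 90th percentile were 9 of them in replicate 1 and 0 in replicate 2. The ranks in the replicates were loosely related, with a Spearman rho of 0.326 over the 1330 regions and 0.775 over the 24380 regions in both lists. That is a description over regions of the same pair of libraries. The summits lay at a median distance of 34 bp. In 885 regions (66.5%) they were within 50 bp of each other, against 66.4% of all regions in both lists. Tagged regions shared with wild-type but not parental lists had 74.9%, and those shared with parental but not wild-type lists 95.0%.

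**Figure D1:**
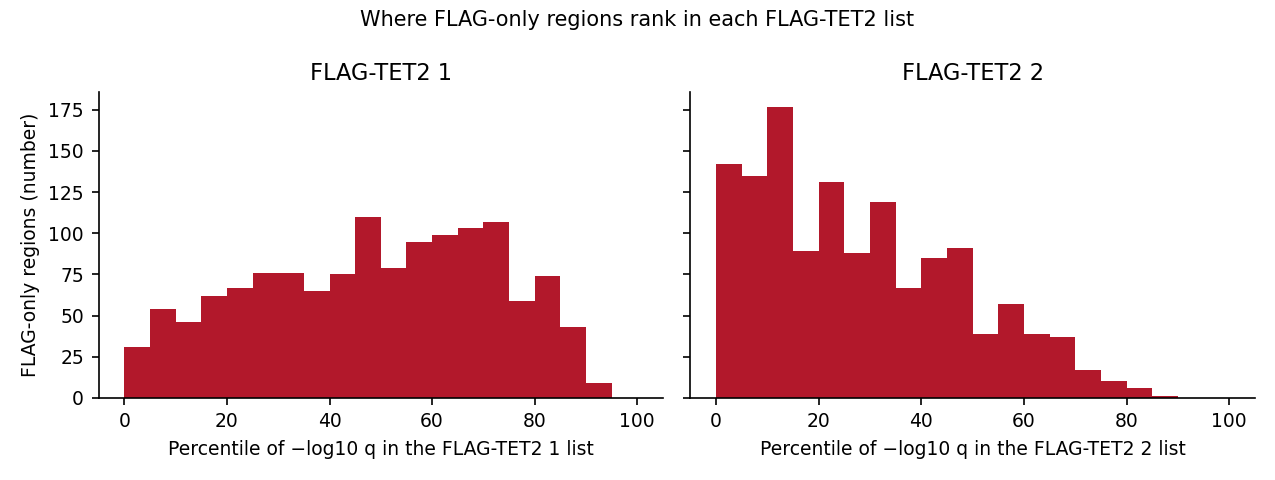
The histograms count FLAG-only regions (vertical axis) by the percentile of their −log10 q among all peaks of FLAG-TET2 replicate 1 (left) and replicate 2 (right), where 100 is the strongest peak. The counts reach up to percentile 92.9 in replicate 1 and 89.3 in replicate 2, and most regions of replicate 2 lie below its middle.

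The 12 leading regions, by mean percentile over both FLAG-TET2 lists, lay near genes of unrelated function. The first, chr4:118746178-118747123, was 6.07 kb from Olfr1338, an odorant receptor gene, and had a fold enrichment of 17.6 in FLAG-TET2 replicate 1 and 13 in replicate 2. A region inside Gclc, whose product is the catalytic subunit of the first enzyme of glutathione synthesis, had 16.3 and 10.0 (chr9:77777030-77777458). One inside Morc3, a gene for a nuclear ATPase of heterochromatin, had 12.3 and 8.75 (chr16:93849170-93849726). These 3 had no parental, wild-type or knockout peak, and the nearest parental or wild-type peak was 4.36, 10.7 and 0.778 kb away in that order.

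Others lay inside genes for RNA-binding proteins. Caprin1, a component of stress granules, held a region with 14.1 and 7.75 (chr2:103792116-103792342). Rbm19, needed for ribosomal RNA processing, held one with 12.9 and 9.16, 0.73 kb from the start of the gene (chr5:120117243-120117495). A region 11.6 kb from Myl1, a muscle myosin light chain gene, had 15.2 and 8.60. A region 25.9 kb from Gtdc1 had 14.8 and 8.60. The region nearest Chordc1, an HSP90 co-chaperone gene, had 16.3 and 8.32 but was 213 kb away. In Frem2, a gene for an extracellular matrix protein of epithelia, the values were nearly level at 10.1 and 9.61 (chr3:53593864-53594198). The other three were at Rerg, a small GTPase gene (12.6 and 7.75), near Ndfip1, an adaptor of NEDD4-type ubiquitin ligases (13.1 and 7.99), and in Fndc3b (17.1 and 7.75). In all 12 the value in replicate 1 was higher than in replicate 2, as in 1112 of the 1330 regions. Over all regions in both FLAG-TET2 lists the median was also higher in replicate 1, at 10.3 against 6.62. Each fold belongs to its own list.

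**Figure D2:**
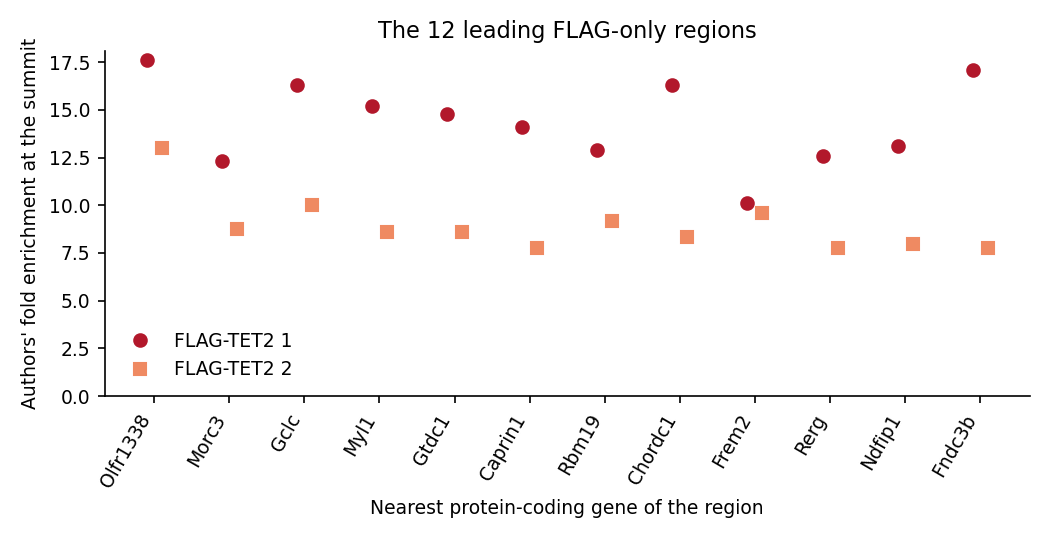
For each of the 12 leading FLAG-only regions, named by the nearest protein-coding gene, the circle is the authors' fold enrichment (linear ratio) in FLAG-TET2 replicate 1 and the square that in replicate 2. The circle is above the square at every region, with the smallest gap at Frem2 (10.1 and 9.61). The other 6 lists are not drawn, because they had no peak at these regions.

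At the low end the regions were close to the authors' threshold. A region at the start of Prpf6, a spliceosome gene, had folds of 3.21 and 3.38 with −log10 q of 3.14 and 2.28. One near 4930467E23Rik had 2.57 and 2.58. Just outside the rule, the regions with the weakest excluding peak are given, so that its weakness is fixed by the choice. At Vps37c, an ESCRT component, folds of 7.87 and 5.75 in FLAG-TET2 replicates stood beside a parental replicate 1 peak of 2.93 (−log10 q 2.34). At Cggbp1 they were 4.25 and 4.93 beside 3.88 in parental replicate 1.

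The knockout lists were not used to choose the regions. A knockout peak was found at 9 of 1330 FLAG-only regions (0.677%, exact 95% binomial interval 0.31 to 1.28%), against 16.8% of all regions in both FLAG-TET2 lists and 14.1% of all merged regions. All 9 were in knockout replicate 2 and 0 in replicate 1 (upper bound 0.277%), whose list had a peak at 2.74% of all merged regions. Intervals cover counting error only and treat regions as independent. Regions in both FLAG-TET2 and both wild-type lists but no parental list had a knockout peak in 16.2% of cases, and those with both parental but no wild-type peaks in 0.524%. Regions in both wild-type lists with no FLAG-TET2 or parental peak (1383) had one in 63.6%. The wild-type and knockout lists were made with the same antibody. Of these sets, the FLAG-only one and the one shared with parental lists alone lacked wild-type peaks by choice and had few knockout peaks. How far this follows from leaving out wild-type peaks was not tested. Without wild-type replicate 1 in the rule, which still left out peaks of wild-type replicate 2, the FLAG-only share was 2.71%.

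The 9 regions with a knockout peak were led by one 2.43 kb from Dcp1a, a gene for an mRNA decapping factor. It had folds of 11 and 6.65 in FLAG-TET2 replicates and 5.47 in knockout replicate 2. A region in Slc24a3, a sodium-calcium-potassium exchanger gene, had 7.98, 7.47 and 7.84. At the Cbr1 promoter printed above the values were 6.42, 5.24 and 5.81. Beside Pck1, the gluconeogenic enzyme gene, they were 7.98, 5.21 and 6.64. In Foxp1, a forkhead factor gene, they were 4.05, 4.37 and 5.25, and in Golim4, a Golgi protein gene, 6.09, 4.04 and 8.32. The other three were at Cand2, Glrp1 and Tgfbr1, with knockout folds of 4.35, 6.88 and 4.55.

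Choosing on one replicate number and reading the other shows how far the choice carries over. On the replicate 1 lists alone, 18711 regions had a FLAG-TET2 peak and no parental or wild-type peak. FLAG-TET2 replicate 2 had a peak at 1380 of them (7.38%), parental replicate 2 at 43 (0.230%) and wild-type replicate 2 at 171 (0.914%). Over all 61324 regions of FLAG-TET2 replicate 1 the shares were 39.8%, 14.8% and 25.7%. On the replicate 2 lists alone, 7857 regions were chosen. FLAG-TET2 replicate 1 had a peak at 7326 of these (93.2%), but parental replicate 1 had one at 3075 (39.1%) and wild-type replicate 1 at 4517 (57.5%). Over all 25000 regions of FLAG-TET2 replicate 2 they were 97.5%, 58.8% and 70.1%. The choice made on the shorter lists therefore often met a parental or wild-type peak in the longer ones.

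**Figure D3:**
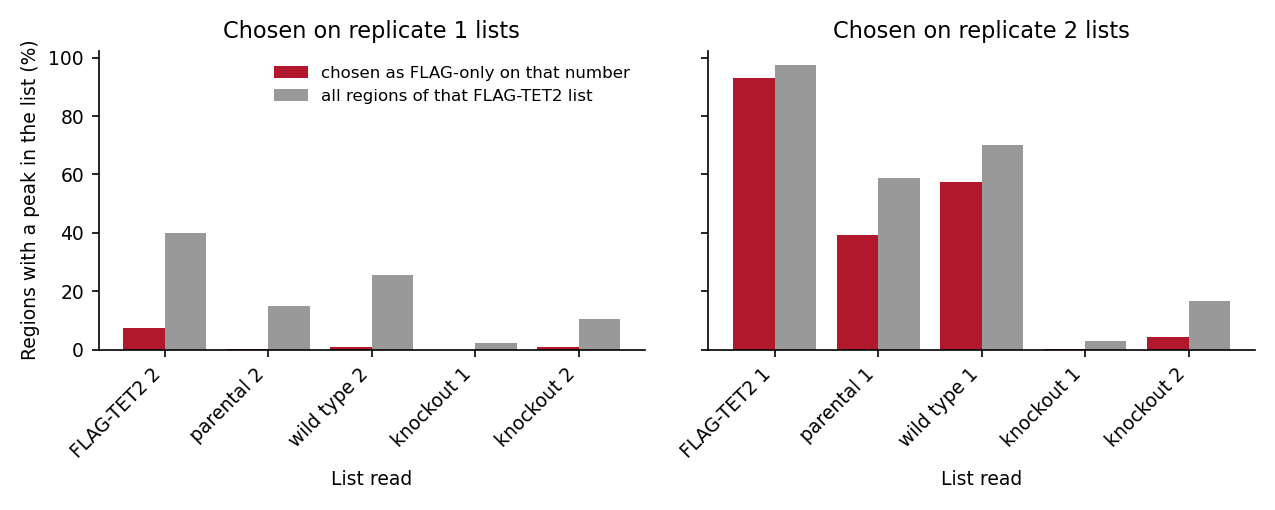
Bars give the share of regions (%) with a peak in each list named below, for regions chosen as FLAG-only on the replicate 1 lists (left) or the replicate 2 lists (right) in red, and for all regions of the FLAG-TET2 list used in grey. On the left FLAG-TET2 replicate 2 had peaks at 7.38% against 39.8%, and on the right FLAG-TET2 replicate 1 at 93.2% against 97.5% while parental and wild-type replicate 1 reached 39.1% and 57.5%.

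The FLAG-only regions were unevenly spread over the genome, which the rule did not fix. Chromosome 3 held 161 of them (12.1%, against 6.16% of all regions in both FLAG-TET2 lists) and chromosome 6 held 153 (11.5%, against 7.01%). On chromosome 3 the excess was in the middle. Between 20 and 100 Mb, bounds set after the values were seen, lay 152 FLAG-only regions, the first at 27086230 and the last ending at 99235349, and only 9 followed them. FLAG-only regions were 14.7% of 1031 regions with both FLAG-TET2 peaks in this stretch, 2.38% of the 378 after it, 8.95% of the 1710 on chromosome 6 and 4.74% of the 21639 elsewhere. The other chromosomes ranged between 3.95 and 7.14%, except chromosome Y with 0 of 17. In windows of 10 Mb the share was uneven elsewhere too. It was 16.7% (12 of 72) between 10 and 20 Mb of chromosome 14 and 13.4% (20 of 149) between 90 and 100 Mb of chromosome 16. On chromosome X, where windows held few regions, it was 40% (2 of 5) between 80 and 90 Mb. Between 130 and 140 Mb of chromosome X it was 25% (5 of 20). On chromosome 6 it ran between 4.42 and 15.1%. Together the stretch and chromosome 6 held 305 of the 1330 regions (22.9%).

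**Figure D4:**
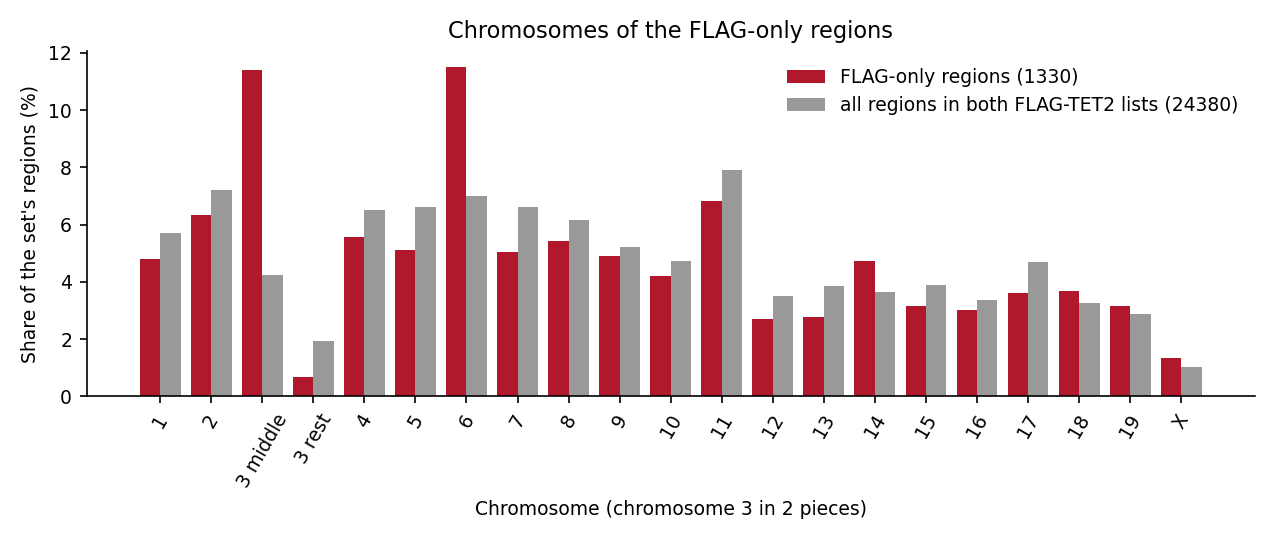
For each chromosome, with chromosome 3 in 2 pieces (20 to 100 Mb and the rest), the red bar is its share (%) of the 1330 FLAG-only regions and the grey bar its share of all 24380 with peaks in both FLAG-TET2 lists. The middle of chromosome 3 (11.4% against 4.23%) and chromosome 6 (11.5% against 7.01%) stand above their grey bars, and the rest of chromosome 3 below it (0.677% against 1.94%).

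The same places stood out in the FLAG-TET2 lists as a whole and not in the others. The stretch on chromosome 3 held 3.99% and 4.32% of the peaks of FLAG-TET2 replicates 1 and 2, against 2.85% and 2.57% of parental, 2.67% and 2.65% of wild-type, and 2.88% and 2.63% of knockout peaks. With the peaks of FLAG-only regions set aside the FLAG-TET2 shares were 3.83% and 3.97%. Chromosome 6 held 6.27% and 7.02% of FLAG-TET2 peaks, against 5.60% and 5.37% of parental, 5.32% and 5.29% of wild-type and 5.84% and 5.85% of knockout peaks. The FLAG-TET2 values of both replicates lay above all 6 others in both places, with 2 lists a group. Over the rest of chromosome 3 the FLAG-TET2 shares were 2.13% and 1.96%, against a range of 2.13 to 2.74% in the other lists.

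**Figure D5:**
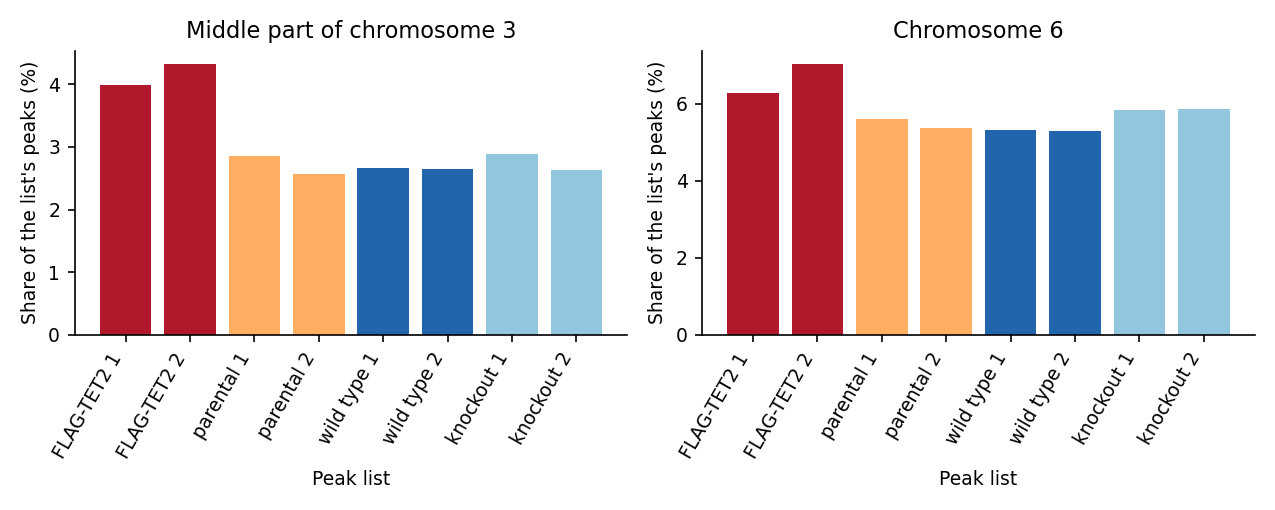
Each bar is 1 peak list, and its height is the share (%) of its peaks that lie between 20 and 100 Mb of chromosome 3 (left) or on chromosome 6 (right). Both FLAG-TET2 bars (3.99% and 4.32%, then 6.27% and 7.02%) are higher than those of the 6 other lists.

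Peak heights at shared regions differed between these places and the rest of the autosomes. In this comparison chromosomes X and Y were left out of the regions called elsewhere. At regions with a peak in both FLAG-TET2 and both wild-type lists, the median fold in the stretch of chromosome 3 (385 regions) was 13.3 and 8.32 in the FLAG-TET2 replicates, against 10.9 and 6.84 at the 10751 regions elsewhere, a ratio of 1.22 in each. In the wild-type replicates the ratios were 1.02 and 0.986. On chromosome 6 (721 regions) they were 1.10 and 1.13 for FLAG-TET2 and 0.999 and 1.03 for wild type. At regions shared with both parental lists but no wild-type list, all ratios were below 1. The FLAG-TET2 ratios were 0.928 and 0.982 in the stretch (100 regions), and the parental ratios 0.826 and 0.751. In both sets of shared regions the ratio was thus higher in the FLAG-TET2 lists than in the lists they were compared with. The input library came from untagged Tet2fl/fl cells and was not analysed here, so no value of these lists gives the amount of DNA from these places in FLAG-TET2 cells. Its part in the counts and ratios was not tested.

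FLAG-only regions in these places were compared with those elsewhere in height and position. Median folds were 7.23 and 5.24 in the stretch of chromosome 3, 6.85 and 5.44 on chromosome 6 and 7.08 and 5.29 elsewhere. Within 1 kb of a gene end lay 11.8%, 9.80% and 12.1% of them. Inside a gene span lay 47.4% in the stretch, 56.2% on chromosome 6 and 58.6% elsewhere, and over 50 kb from a gene 15.8%, 15.7% and 11%. A parental or wild-type peak within 1 kb was found for 27.0%, 30.1% and 31.0%. Regions found in FLAG-TET2 replicate 1 and no other list (17022) also lay in the stretch more often than those of parental replicate 1 alone (7155), at 5.99% against 1.34%. For wild-type replicate 1 alone (4634) it was 1.21%. Without FLAG-TET2 replicate 2 the stretch held 6.40% of the regions, and without wild-type replicate 1 it held 7.35%. For chromosome 6, leaving out FLAG-TET2 replicate 2 gave 7.14%.

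Several genes in these places held more than 1 FLAG-only region. A gene was the nearest, within 50 kb, of 3 or more FLAG-only regions in 21 cases, 5 in the stretch of chromosome 3 and 7 on chromosome 6, while 882 genes were nearest exactly 1. Jade1, a subunit of the HBO1 histone acetyltransferase complex, had 9, all within its span, among 16 regions in both FLAG-TET2 lists. The highest of these in replicate 1, chr3:41585064-41585690, had folds of 12 and 4.74. The highest in replicate 2, chr3:41581799-41582320, had 7.95 and 5.81. Kirrel, a gene for an adhesion protein of the immunoglobulin superfamily, had 7 of 14. Of these, 1 was inside the gene, with 4.49 and 3.38, and the highest was 14.4 kb outside it, with 11.4 and 8.32 (chr3:87189136-87189481). Some regions at Jade1 and Kirrel were close neighbours, as only peaks that shared at least 1 bp were merged. In Jade1, chr3:41581799-41582320 was followed by chr3:41582384-41582837. Near Kirrel, chr3:87189136-87189481 was followed by chr3:87189587-87189776. The counts per gene are thus of merged regions and may exceed the number of separate sites. They were not recounted with wider merging. On chromosome 6, Bcat1, the cytosolic branched-chain aminotransferase gene, had 5 of 15, with folds between 4.41 and 9.12 in replicate 1.

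Outside these places, Gm37013, an annotated locus that spans the clustered protocadherin genes of chromosome 18, had 8 of 33. Clustered protocadherins are cell adhesion proteins whose variable exons have separate promoters. The nearest gene ends of these 8 were those of Pcdhgb1, Pcdhga8, Pcdhga9, Pcdhga10, Pcdhgb7, Pcdhga12 and, for one, Taf7, a TFIID subunit gene. Folds there ran from 5.38 to 8.81 in replicate 1 and from 4.08 to 6.04 in replicate 2. These genes are close paralogs, and their values are uncertain where reads could map to more than 1 copy. Morc3 had 4 of 9, and the Morc3 region given above was the highest of them.

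Relatively few FLAG-only regions lay at the ends of genes. Either end of a protein-coding gene, start or finish, was within 1 kb of 157 (11.8%), against 32.7% of all regions in both FLAG-TET2 lists and 22.3% of all merged regions. Tagged regions shared with wild type but not with parental cells had 11.4%, and those shared with parental but not with wild-type cells 11.7%, close to the FLAG-only share. Inside a gene span lay 759 (57.1%), against 63.7%, and over 50 kb from a gene lay 161 (12.1%), against 11.4%. Of 1281 regions off chromosome 18, 124 (9.68%) were within 1 kb of a listed transcription start, against 31.2%. Without parental replicate 1 in the rule the share at gene ends was 18.3%.

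Many FLAG-only regions bordered excluded peaks. A parental or wild-type peak was within 0.5 kb of 273 (20.5%), within 1 kb of 405 (30.5%) and within 5 kb of 711 (53.5%). Without wild-type replicate 1 in the rule the share within 1 kb was 19.1%. Among the 925 regions without one within 1 kb, the share at gene ends was 5.95%. The leading regions at gene ends after Rbm19 were at Stip1, an HSP70-HSP90 organising co-chaperone (12.5 and 6.60), Muc1, a mucin (9.12 and 7.47), Zcchc9 (9.12 and 6.90), Slc35b4, a nucleotide sugar transporter (11.4 and 6.34), and Asns, asparagine synthetase (11.4 and 6.04). The Asns region (chr6:7693521-7694020) was 0.141 kb from an excluded peak and the Stip1 region (chr19:7020483-7020731) was 18.6 kb from one. Another FLAG-only region lay within 10 kb of 7.67% of them.

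Of 21883 protein-coding genes, 1005 (4.59%) were nearest gene of a FLAG-only region within 50 kb, and 3368 of a tagged region shared with wild type but not parental cells. Among 178 genes of 10 lists for stem cell state, DNA methylation, lineage and background classes, 22 were. In the core pluripotency list they were 5 of 21, namely Fgf4, Jarid2, Mycn, Nr6a1 and Rif1, while 20 of the 21 were near a region in both FLAG-TET2 lists, against 11057 of all 21883 genes. The Fgf4 region, 2.38 kb from this FGF ligand gene, had folds of 5.67 and 5.77 (chr7:144858764-144859001). Rif1, a regulator of replication timing, had one 4.76 kb away with 6.47 and 4.51. The regions nearest Mycn, a MYC-family gene, and Nr6a1, an orphan nuclear receptor gene, were each listed with 8.36 and 5.49, the same pair of values. The Mycn region was 41.3 kb from its gene, and the Nr6a1 region was inside its own. The nearest parental or wild-type peak was 0.268, 0.13, 3.56 and 26.2 kb from the Fgf4, Rif1, Mycn and Nr6a1 regions.

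In the naive-state list 4 of 20 genes were near a FLAG-only region, against 13 near a region shared with wild type. Nr0b1, the orphan receptor DAX1, had one inside the gene with 8.36 and 7.19. Pecam1, a surface adhesion molecule, had one with 6.85 and 6.34. Klf5, a Krüppel-like factor, had one 39.6 kb away with 8.74 and 4.93, and Fbxo15 one with 6.47 and 7.19. The nearest excluded peak was 1.07, 0.126, 1.77 and 15.5 kb from the Nr0b1, Pecam1, Klf5 and Fbxo15 regions. In the formative and primed list there were 3 of 18. A region inside the gene of Etv5, an ETS factor downstream of FGF signalling, had 12.5 and 5.21. One inside the gene of Spry4, an inhibitor of that pathway, had 7.29 and 7.19. The region nearest Dusp6, an ERK phosphatase gene, was 25.7 kb away and had 9.29 and 5.09. The nearest excluded peak was 1.19, 6.34 and 5.05 kb from the Etv5, Spry4 and Dusp6 regions.

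Among genes of DNA methylation 3 of 20 had FLAG-only regions, against 8 near a region shared with wild type. Uhrf1, which brings the maintenance methyltransferase to hemimethylated DNA, had one inside the gene with 10.1 and 5.90 (chr17:56321391-56321854). Tet1, whose product oxidises the same base, had one with 8.81 and 4.97 (chr10:62883900-62884101), 0.151 kb from an excluded peak. Tet2 itself (chr3:133463677-133545136) had a pair, at chr3:133532337-133533223 with 10.6 and 5.21 and at chr3:133515432-133515572 with 4.57 and 5.77. An excluded peak was 0.189 and 0.691 kb from this pair in that order, and 3.75 kb from the Uhrf1 region. Tet2 lies outside the 20 to 100 Mb stretch. Over its span FLAG-TET2 replicates had 13 and 10 peaks, parental replicates 7 and 0, wild-type replicates 8 and 4, and knockout replicates 0 and 1.

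Hematopoietic, imprinted, ribosomal protein and fibroblast genes were near FLAG-only regions at shares of 5.26%, 13.3%, 5.88% and 14.3%, against 4.59% of all genes. The germline share was 0%, and all these counts were small. There was 1 of 19 hematopoietic genes (Cebpe, with 4.51 and 4.42), 0 of 16 germline genes, 2 of 15 imprinted genes (Grb10, with 7.56 and 4.04, and Usp29, with 3.78 and 3.73), 1 of 17 ribosomal protein genes (Rps14, with 7.20 and 4.70) and 2 of 14 fibroblast genes (Pdgfra, with 10.3 and 5.77, and Col3a1, with 7.98 and 6.06). The regions of Cebpe, Pdgfra and Col3a1 lay 2.19, 11.8 and 10.1 kb outside their genes. The nearest excluded peak was 0.304, 0.782, 7.33, 0.082, 54 and 1.4 kb from the regions of Cebpe, Grb10, Usp29, Rps14, Pdgfra and Col3a1. Ribosomal protein genes were nearly all near some region in both FLAG-TET2 lists, at 16 of 17, against the 11057 of 21883 genes given above. Olfactory receptor genes, silent in most cells, had 7 of 1110 near a FLAG-only region (0.631%), and vomeronasal receptor genes 1 of 355. Genes named Zfp, many of them zinc finger repressors, had 22 of 400 (5.50%), close to the 4.59% of all genes, and Zfp990 had the leading region with 10.3 and 7.47. With so few genes per list these counts describe where the regions lie and no more.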

How the data were processed

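Peak lists of 8 immunoprecipitations were read, 1 per sample, from 10 samples. Named in the submitters' processing notes, with neither role nor version, are MACS2, Bowtie2, Trimmomatic, DESeq2, DiffBind and the mm10 build. Each deposited list gives the authors' position, score, fold enrichment (a linear ratio), −log10 p and −log10 q and the summit offset per peak. Such values served to rank and describe peaks inside their own list. Each list came from 1 library, not from pooled replicates. Restricting to 21 chromosomes removed 2 to 34 peaks a list. Peaks that shared at least 1 bp were merged. Depth is unknown, so list lengths mix binding with depth.

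Gene spans, promoter windows and their sequences came from RefSeq on GRCm38.p6. The gene table gives no strand or exons, and promoter windows of chromosome 18 were not used here. Percentiles rank −log10 q within a list. Named regions were the 12 leading by mean percentile in the FLAG-TET2 lists, the 6 leading with a knockout peak (the others were named after their values were seen), the 6 leading at gene ends, the 4 lowest, up to 4 a gene list, genes nearest 3 or more regions and the 4 regions just outside with the weakest excluding peak. Not every one is given, and a few are not reported here. The members, gene lists and rules were chosen with earlier results of these data known. No test was run, since the rule fixed the members, each group had 2 lists, and regions are not replicates. Intervals are exact binomial at 95%. Scripts used Python 3.11.15, pandas 2.3.3, numpy 2.4.6 and SciPy 1.17.1, and merging and counting were tested on simulated peaks. Alternatives were another threshold, summit windows, other merging, equal list lengths, no nearby excluded peak, a replicate block, other distances and leaving out each replicate.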

Additional observations from a re-analysis of the deposited data

How the results depend on the processing

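Of 104 values recomputed under alternatives, 65 stayed close to the main value, and the cause of the other changes was not tested. With a −log10 q of at least 5, the rule took 993 regions, an excluded peak within 1 kb was found for 26.3%, and replicate 2 had a peak at 6.19% of regions chosen on replicate 1. With 200 bp summit windows the share at gene ends was 18.6%, with an excluded peak within 1 kb 42.2%, and read in replicate 2 8.60%. Merging within 500 bp gave 7.08% at gene ends and 11.1% with an excluded peak within 1 kb. With each list shortened to its 2259 leading peaks, the rule took 14 regions, none of them among the 1330, and of these 0% had a knockout peak, 21.4% lay at gene ends, 78.6% in gene spans, 0% near an excluded peak, 21.4% in the stretch of chromosome 3 and 14.3% on chromosome 6, and 36.5% of regions chosen on replicate 1 had a peak in replicate 2. Without regions that had an excluded peak within 1 kb, 5.95% lay at gene ends. A distance of 0.5 kb gave 6.54% at gene ends and 20.5% with an excluded peak, and 5 kb gave 28.9% and 53.5%. Reading regions chosen on replicate 2 in replicate 1 gave 93.2%. Counting every gene within 50 kb gave 35 genes of the 10 lists.

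The shared numbers do not show that replicates were paired. A replicate block, in which each FLAG-TET2 list was filtered by the parental and wild-type lists of its own number, gave 1380 regions, of which 1330 met the rule, and a knockout peak at 1.38%. Leaving out 1 replicate at a time gave between 1337 and 18559 regions, a knockout peak at 0 to 2.71%, 11.2 to 18.3% at gene ends, 53.1 to 57.9% in gene spans, 19.1 to 41.5% with an excluded peak within 1 kb, 6.40 to 11.4% in the stretch of chromosome 3 and 7.14 to 11.4% on chromosome 6. The chromosome shares, their bounds and their alternatives were chosen after seeing the data.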
